A study of Homo sapiens with 4 samples.

Results

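The genes examined were 10 long noncoding RNAs that carry small nucleolar RNAs (snoRNAs) in their introns or are named after growth arrest: GAS5, SNHG1, SNHG5, SNHG6, SNHG7, SNHG8, SNHG12, SNHG15, ZFAS1 and EPB41L4A-AS1. They were picked by gene symbol from the 24462 genes of the deposited count tables. The rule held no measured value, but earlier results of these data were known when it was made. All 10 were listed once, and 9 had at least 10 reads in some library. SNHG15 had no read in 3 libraries and 1 read in the other. HepG2, a cell line from a human hepatocellular carcinoma, was sequenced in 4 libraries, 1 for each condition. The cells were given DMSO (the solvent control), PD0332991 (an inhibitor of the kinases CDK4 and CDK6), scrambled siRNA (the transfection control), or siRNAs against CDK4 and CDK6 together (CDK4/6 KD). All 4 were the same line grown in RPMI with 10% serum, and for the sequenced cells the sources used here do not give the dose or how long the drug or the siRNAs acted. Each condition having 1 library, the differences below have no replicate check and carry no p-value. Each fold change has a 95% Clopper-Pearson interval, taken from how a gene's reads divide over the pair of libraries, which covers counting error only. A gene is called higher or lower where this interval lies wholly on one side of 1.

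A snoRNA host gene is transcribed and spliced, and its introns are trimmed to snoRNAs that guide chemical modification of ribosomal and spliceosomal RNA. Box C/D snoRNAs guide 2′-O-methylation and box H/ACA snoRNAs guide pseudouridylation. The spliced host transcript that remains is polyadenylated and exported, and for several hosts it is short-lived because ribosomes reach early stop codons and nonsense-mediated decay removes it. Many hosts start with a 5′ terminal oligopyrimidine (5′ TOP) tract, a C followed by pyrimidines, as ribosomal protein mRNAs do. Such transcripts are translated under the control of mTOR, and GAS5 was first isolated because it accumulates in cells that stop growing. The QuantSeq libraries were primed on poly(A), so the values below are read as levels of polyadenylated host transcripts and not of the snoRNAs cut from their introns. Splicing was not measured, and genes of the other strand that may share reads are treated below.

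Sequence around the annotated start is shown for the measured hosts, since a pyrimidine tract that begins at the start marks the 5′ TOP genes. Of the 10 hosts, 8 matched the RefSeq promoter table by symbol (build GRCh38.p14). Each run below covers 40 bases before the start and 20 from it, 5′ to 3′ on the gene's strand. Capitals mark a run of at least 5 letters, each C or T, that holds the start base, and a TATAA between 40 and 16 bases before the start. Both were searched on the gene's strand only, and they do not overlap.
SNHG12: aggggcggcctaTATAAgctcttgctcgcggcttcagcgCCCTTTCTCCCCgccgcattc
ZFAS1: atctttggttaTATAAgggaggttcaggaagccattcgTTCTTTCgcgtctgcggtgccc
SNHG5: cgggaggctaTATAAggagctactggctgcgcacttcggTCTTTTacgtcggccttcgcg
SNHG7: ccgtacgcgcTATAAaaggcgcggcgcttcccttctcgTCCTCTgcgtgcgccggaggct
SNHG8: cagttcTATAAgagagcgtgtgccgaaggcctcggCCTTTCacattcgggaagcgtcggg
SNHG1: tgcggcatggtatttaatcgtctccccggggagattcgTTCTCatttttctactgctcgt
EPB41L4A-AS1: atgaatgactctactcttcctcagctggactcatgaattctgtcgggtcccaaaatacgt
These windows lie at chr1:28581854-28581913 for SNHG12, chr20:49278602-49278661 for ZFAS1, chr6:85678714-85678773 for SNHG5, chr9:136728165-136728224 for SNHG7, chr4:118278722-118278781 for SNHG8, chr11:62855866-62855925 for SNHG1 and chr5:112160486-112160545 for EPB41L4A-AS1. ZFAS1, SNHG8 and EPB41L4A-AS1 are read from the plus strand and the other windows from the minus strand.

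The pyrimidine run held the start base in 6 of the 8 matched hosts. By the same rule it was found in 9.6% of the 35116 promoters of the table and in 8 of 15 translation genes known for a 5′ TOP tract. The run, counted on both sides of the start base, had 12 letters in SNHG12 and 7 in ZFAS1. It had 6 in SNHG5, SNHG7 and SNHG8, and 5 in SNHG1. In each of these hosts it began before the start base, so the part that lies in the transcript is shorter. In SNHG8 the start base was its last letter, so that SNHG8 opens with C and then A. EPB41L4A-AS1 had no such run at its start, and neither had GAS5, whose RefSeq start lies 1056 bases upstream of the start that the largest number of its GENCODE 29 transcripts share (6 of 29). That common start, at chr1:173867960-173867989 on the minus strand of GRCh38, opens with a run of 6 pyrimidines, in capitals here. A second start was looked up for GAS5 only, and not for EPB41L4A-AS1 or the other hosts.
GAS5 transcript start: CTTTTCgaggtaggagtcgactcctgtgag
The TATAA was present in 5 of the 8 hosts, SNHG12, ZFAS1, SNHG5, SNHG7 and SNHG8. It was also present in 5 of the 15 translation genes named above for a 5′ TOP tract, and in 3.91% of all promoters. CACGTG, the E-box that MYC and MAX bind, was found on either strand (it reads the same on both) in the promoter of SNHG7 alone among the 8 (250 bases before the start and 50 from it), and in 7.26% of all promoters. These matches are descriptions of letters in these windows.

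Both siRNA targets were lower in CDK4/6 KD. In TMM-normalized CPM (counts scaled to a common library size), scrambled siRNA had 353 for CDK4 and 535 for CDK6, where CDK4/6 KD had 71.8 and 129. Library totals ran from 8983848 to 11176880 reads. All 8 hepatocyte and liver cancer genes examined (ALB, AFP, APOA1, APOB, TTR, SERPINA1, TF and FGB) had at least 1380 reads in every library, PTPRC (leukocytes) and PECAM1 (endothelium) had at most 5 reads in any, and the fibroblast gene COL1A1 had 332 reads in DMSO, 468 in PD0332991, 73 in scrambled siRNA and 207 in CDK4/6 KD. The proliferation marker MKI67 had 413 CPM in DMSO, 31.5 in PD0332991, 281 in scrambled siRNA and 158 in CDK4/6 KD, so it was lower than its control in both inhibited libraries. The part of the growth state in the values below was not tested.

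Most host RNAs differed in opposite directions under the 2 ways of inhibiting CDK4/6. In CDK4/6 KD, 8 of the 9 measured hosts were lower than in scrambled siRNA and none was higher. After PD0332991, 7 of the 9 were higher than in DMSO and 2, SNHG1 and SNHG12, were lower. GAS5, EPB41L4A-AS1, SNHG8, ZFAS1, SNHG6 and SNHG5 were both lower in CDK4/6 KD and higher after PD0332991, as were 6.76% of the 13099 genes in both comparisons and 9.94% of those averaging 200 reads or more. Over all genes past the filter of 10 reads, 31.9% were lower and 30.1% higher in CDK4/6 KD, and 29.2% were higher and 27.7% lower after PD0332991. Well counted genes, those averaging 200 reads or more as the 9 hosts do, were called more often, with 41.9% lower and 32.2% higher in CDK4/6 KD, and 33% higher and 36% lower after PD0332991. The median log2 fold change of the 9 hosts was -0.46 in CDK4/6 KD and 0.56 after PD0332991, against 0.00 and 0.03 over all genes tested. Between the control libraries, scrambled siRNA to DMSO, 2 hosts were higher and 4 lower, and the median was -0.04. Of all genes, 28.3% were higher and 27.9% lower in that comparison, and of the well counted genes 37.3% and 31.8%.

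Summed over the 10 genes, the host RNAs gave 1268 CPM in DMSO, 1711 in PD0332991, 1205 in scrambled siRNA and 802 in CDK4/6 KD. The PD0332991 library held the most and the CDK4/6 KD library the least, with the controls between them. The summed fold change was 0.666 (95% interval 0.648 to 0.684) in CDK4/6 KD and 1.35 (1.32 to 1.38) after PD0332991, and it was 0.95 (0.927 to 0.975) between the controls. CPM is relative to the library's TMM-adjusted size, so fewer transcripts per cell and a shift in the RNA content of the whole cell cannot be told apart in it.

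**Figure D1:**
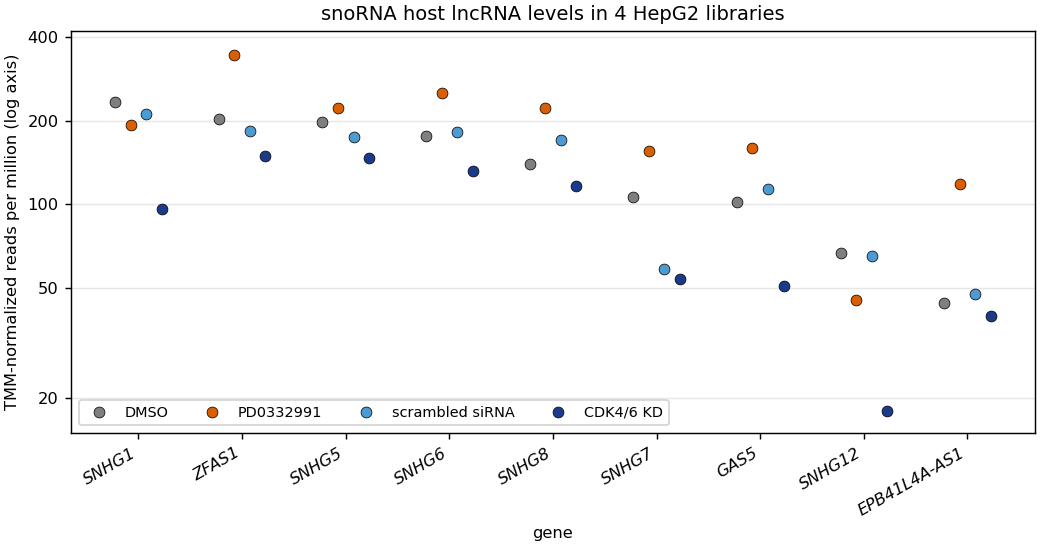
TMM-normalized CPM (log axis) of the 9 measured host genes in each of the 4 libraries, 1 point per library and no error bar because each condition had 1 library. The CDK4/6 KD library (dark blue) is the lowest point for all 9 genes, and the PD0332991 library (orange) is the highest for 7 of them, the exceptions being SNHG1 and SNHG12.

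Levels spanned from 17.9 to 344 CPM among the 9 hosts. Because the reads come from the 3′ end, CPM was not divided by transcript length. In DMSO the order of read counts was SNHG1, ZFAS1, SNHG5, SNHG6, SNHG8, SNHG7, GAS5, SNHG12 and EPB41L4A-AS1. ZFAS1 did not differ from SNHG5, nor SNHG7 from GAS5, beyond counting error, and the other neighbours in that order did. In PD0332991 the order began with ZFAS1 and SNHG6, and SNHG1 came after SNHG5 and SNHG8. In CDK4/6 KD it began with ZFAS1 and SNHG5, which did not differ, and SNHG1 came after SNHG6 and SNHG8. SNHG1 gave 18.4% of the host reads in DMSO and 17.6% in the other control, but 11.3% in PD0332991 and 11.9% in CDK4/6 KD. SNHG12 gave 5.27% and 5.39% in the controls and 2.64% and 2.23% in the same inhibited libraries. These 2 hosts were the only ones lower in both comparisons.

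SNHG1 hosts a cluster of box C/D snoRNAs, and SNORD22 and SNORD25 to SNORD31 lie within its span on chromosome 11 (62851988 to 62855914, minus strand, GRCh38). Its expression was 233 CPM in DMSO, 193 in PD0332991, 212 in scrambled siRNA and 95.8 in CDK4/6 KD. The CDK4/6 KD library stood far below the other 3 (fold change: 0.452, 95% interval 0.42 to 0.485), while the PD0332991 library was modestly below DMSO (0.83, 0.779 to 0.884). The control libraries also differed, by a fold change of 0.911 (0.858 to 0.966).

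SNHG12 lies on chromosome 1 from 28578538 to 28583132 on the minus strand and holds SNORD99, SNORA61, SNORA44 and SNORA16A, a mixture of both snoRNA classes. Its expression was 66.8 CPM in DMSO, 45.1 in PD0332991, 65 in scrambled siRNA and 17.9 in CDK4/6 KD. Its fold change in CDK4/6 KD was the lowest of the 9 hosts (0.276, 95% interval 0.234 to 0.323), at percentile 1.71 of all genes tested there. After PD0332991 the fold change was 0.676 (0.594 to 0.767), and between the controls the interval included 1 (0.973, 0.872 to 1.09).

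GAS5 (growth arrest specific 5) lies on chromosome 1 from 173863900 to 173868882 on the minus strand and holds 10 box C/D snoRNAs, among them SNORD44, SNORD47 and SNORD74 to SNORD81. Its expression was 102 CPM in DMSO, 160 in PD0332991, 113 in scrambled siRNA and 50.5 in CDK4/6 KD. The inhibited libraries lay on opposite sides of both controls. GAS5 was 1.56-fold higher after PD0332991 (95% interval 1.43 to 1.69) and its fold change in CDK4/6 KD was 0.445 (0.402 to 0.492). The controls differed by a fold change of 1.11 (1.02 to 1.21). The ratio of the CDK4/6 KD fold change to the PD0332991 fold change was 0.286 (0.251 to 0.325), the lowest of the 9 hosts. Its interval overlapped that of EPB41L4A-AS1 (0.309, 0.261 to 0.367).

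EPB41L4A-AS1, also known as TIGA1 (transcript induced by growth arrest), holds SNORA13 and lies on chromosome 5 from 112160526 to 112164276 on the plus strand. It had 403 reads in DMSO, 1069 in PD0332991, 511 in scrambled siRNA and 449 in CDK4/6 KD, or 44, 118, 47.6 and 39.6 CPM. The PD0332991 library stood apart from the other 3, which lay close together. The fold change after PD0332991 was 2.69 (95% interval 2.39 to 3.02), at percentile 96.1 of all genes tested and the one host past 2-fold there, where 7.62% of genes were. In CDK4/6 KD it was 0.831 (0.731 to 0.945), and against DMSO in place of scrambled siRNA it was 0.901 with an interval that included 1 (0.785 to 1.03).

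ZFAS1, named as the antisense RNA at the 5′ end of ZNFX1, holds SNORD12, SNORD12B and SNORD12C and lies on chromosome 20 from 49278178 to 49295738 on the plus strand. It was the most counted host in the PD0332991 library, with 203 CPM in DMSO, 344 in PD0332991, 183 in scrambled siRNA and 149 in CDK4/6 KD. It was 1.7-fold higher after PD0332991 (95% interval 1.6 to 1.8). Its fold change in CDK4/6 KD was 0.816 (0.764 to 0.871), near that of the controls to each other (0.902, 0.846 to 0.962). ZNFX1 itself, a helicase-like protein gene on the other strand, had 672, 797, 1258 and 426 reads in the same order of libraries, and so did not run parallel to ZFAS1.

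SNHG8 holds SNORA24 on chromosome 4 (118278709 to 118279823, plus strand), and SNHG6 holds SNORD87 on chromosome 8 (66921684 to 66926398, minus strand). SNHG8 had 140 CPM in DMSO, 222 in PD0332991, 170 in scrambled siRNA and 116 in CDK4/6 KD. SNHG6 had 176, 251, 182 and 132 CPM in that order. Both had the PD0332991 library as the highest and the CDK4/6 KD library as the lowest. The fold changes in CDK4/6 KD were 0.686 (95% interval 0.639 to 0.737) for SNHG8 and 0.725 (0.677 to 0.776) for SNHG6, and after PD0332991 they were 1.58 (1.47 to 1.7) and 1.43 (1.34 to 1.52). SNHG8 was also higher in scrambled siRNA than in DMSO (1.21, 1.13 to 1.3), and for SNHG6 that interval included 1 (1.03, 0.968 to 1.11).

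SNHG5, which holds SNORD50A and SNORD50B on chromosome 6 (85660950 to 85678748, minus strand), differed least across the libraries. Its expression was 197 CPM in DMSO, 222 in PD0332991, 174 in scrambled siRNA and 147 in CDK4/6 KD. The fold change was 0.847 (95% interval 0.793 to 0.906) in CDK4/6 KD and 1.13 (1.06 to 1.2) after PD0332991, sizes close to the 0.884 (0.828 to 0.943) between the controls.

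SNHG7 was the host for which the controls differed most. It holds SNORA17A and SNORA17B on chromosome 9 (136721366 to 136728184, minus strand). Its expression was 106 CPM in DMSO, 156 in PD0332991, 58.5 in scrambled siRNA and 53.6 in CDK4/6 KD. Both siRNA libraries were low and both libraries without siRNA were high. Scrambled siRNA to DMSO gave a fold change of 0.552 (95% interval 0.499 to 0.611), which made SNHG7 the one host past 1.5-fold between the controls, where 15.7% of all genes were at least 1.5-fold lower. CDK4/6 KD to scrambled siRNA gave 0.917 with an interval that included 1 (0.819 to 1.03), and CDK4/6 KD to DMSO gave 0.507 (0.457 to 0.561). The fold change after PD0332991 was 1.48 (1.36 to 1.61), or 2.67 (2.43 to 2.94) against scrambled siRNA.

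SNHG15, the host of SNORA9 on chromosome 7 (44983023 to 44986961, minus strand), was listed at 0 in DMSO, PD0332991 and scrambled siRNA and at 1 read in CDK4/6 KD. A count of 0 allows up to 3 reads, or 0.327 CPM in DMSO, 0.332 in PD0332991 and 0.28 in scrambled siRNA, so no fold change was given. The annotation behind the counts is not given in the sources used here.

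**Figure D2:**
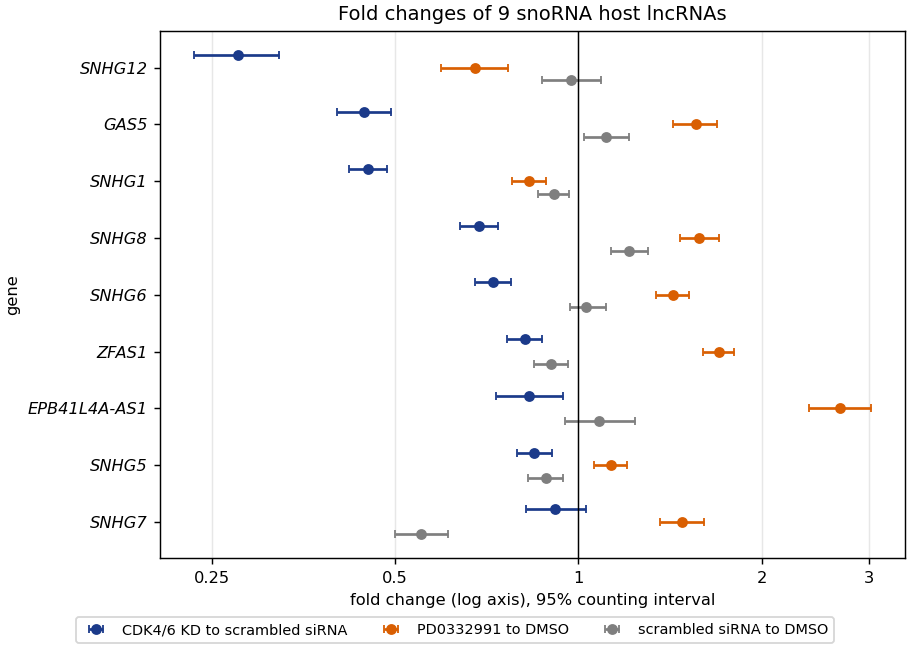
Fold changes (log axis) of the 9 measured hosts in CDK4/6 KD to scrambled siRNA (dark blue), PD0332991 to DMSO (orange) and scrambled siRNA to DMSO (grey), with bars for the 95% counting interval from 1 library per condition. The dark blue points lie at or left of 0.917, the orange points right of 1 except for SNHG1 and SNHG12, and the grey points near 1 except for SNHG7 at 0.552.

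With the controls exchanged, 8 of 9 hosts were lower in CDK4/6 KD to DMSO, where 30.4% of all genes were, and 7 were higher and 2 lower in PD0332991 to scrambled siRNA, against 31.2% and 31.6% of all genes. Each exchanged pair also differs in whether the cells were transfected. The gene whose interval included 1 in CDK4/6 KD was then EPB41L4A-AS1 in place of SNHG7. At a threshold of 2-fold, 3 hosts were lower in CDK4/6 KD (SNHG12, GAS5 and SNHG1) and none was higher, against 7.6% and 9.22% of all genes. The same 3 were the hosts at least 1.5-fold lower there, where 17.4% of genes were lower and 19.4% higher by that much. After PD0332991, 4 were at least 1.5-fold higher (EPB41L4A-AS1, ZFAS1, SNHG8 and GAS5) and none was lower, against 17.3% and 14.6% of all genes. None was 2-fold lower after PD0332991, where 6.97% of genes were. Between the controls no host was 1.5-fold higher or differed by 2-fold, against 13.4% of genes past 1.5-fold upwards, and 5.31% upwards and 6.62% downwards past 2-fold.

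**Figure D3:**
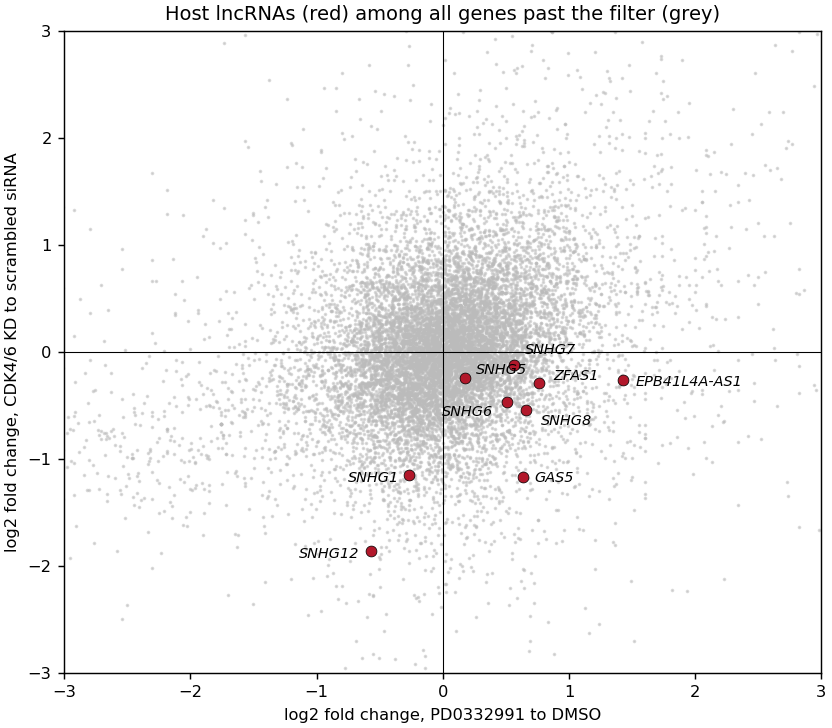
Log2 fold change of CDK4/6 KD to scrambled siRNA (vertical axis) against PD0332991 to DMSO (horizontal axis) for the 13099 genes in both comparisons (grey) and the 9 hosts (red), with 234 genes beyond the axis limits of 3 log2 units either way. No library is shared between the axes. The 9 hosts lie below the horizontal line, 7 of them right of the vertical line, and SNHG1 and SNHG12 to its left.

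The hosts that carry box C/D snoRNAs only (GAS5, SNHG1, SNHG5, SNHG6 and ZFAS1, leaving aside SNORA103 in GAS5 and an unnamed snoRNA locus in SNHG1) had CDK4/6 KD fold changes from 0.445 to 0.847. Those that carry H/ACA snoRNAs only (SNHG7, SNHG8 and EPB41L4A-AS1) ran from 0.686 to 0.917. After PD0332991 the ranges were 0.83 to 1.7 and 1.48 to 2.69. The ranges overlapped in both comparisons. RefSeq places 35 snoRNAs within the spans of the 10 hosts, 31 of which the tables list, and 24 of these had at most 10 reads in every library. SNORD50A, in SNHG5, was the most counted, with 183 reads in DMSO, 108 in PD0332991, 135 in scrambled siRNA and 100 in CDK4/6 KD.

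For GAS5, SNHG6 and SNHG7, the 3′ end lies inside a counted gene of the other strand, and that gene's reads moved with those of the host over the 4 libraries. Whether the counting used strand is not stated, and without strand the reads of such a pair cannot be told apart. GAS5-AS1, which overlaps the end of GAS5 by 42 bases, had 475, 657, 549 and 277 reads in DMSO, PD0332991, scrambled siRNA and CDK4/6 KD, between 45.1% and 50.6% of the GAS5 reads. MCMDC2, a meiotic gene that overlaps the end of SNHG6 by 365 bases, had 848, 1128, 1000 and 757 reads, between 49.8% and 52.7% of those of SNHG6. FAM69B, which overlaps the GENCODE model of SNHG7 by 2685 bases, had 744, 1238, 566 and 500 reads, between 76.7% and 90.3%. The level of each of these hosts differed by more than 1.5-fold over the same libraries, so its shares varied less than its level. At SNHG12 the overlap with TRNAU1AP is 8 bases, and TRNAU1AP had 245, 187, 244 and 251 reads, from 35% to 124% of those of SNHG12. EPB41L4A, whose span contains EPB41L4A-AS1 on the other strand, had at most 67 reads. SNHG1, SNHG5, SNHG8 and ZFAS1 have no such gene with reads at the 3′ end. Of these, SNHG1 was lower in both comparisons, and SNHG5, SNHG8 and ZFAS1 were lower in CDK4/6 KD and higher after PD0332991. Without the hosts that end inside a counted gene of the other strand, a choice made after seeing the data, 4 of 4 hosts were lower in CDK4/6 KD, and 3 were higher and 1 lower after PD0332991. Of the well counted genes, 41.9% were lower in CDK4/6 KD, and 33% were higher and 36% lower after PD0332991.

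**Figure D4:**
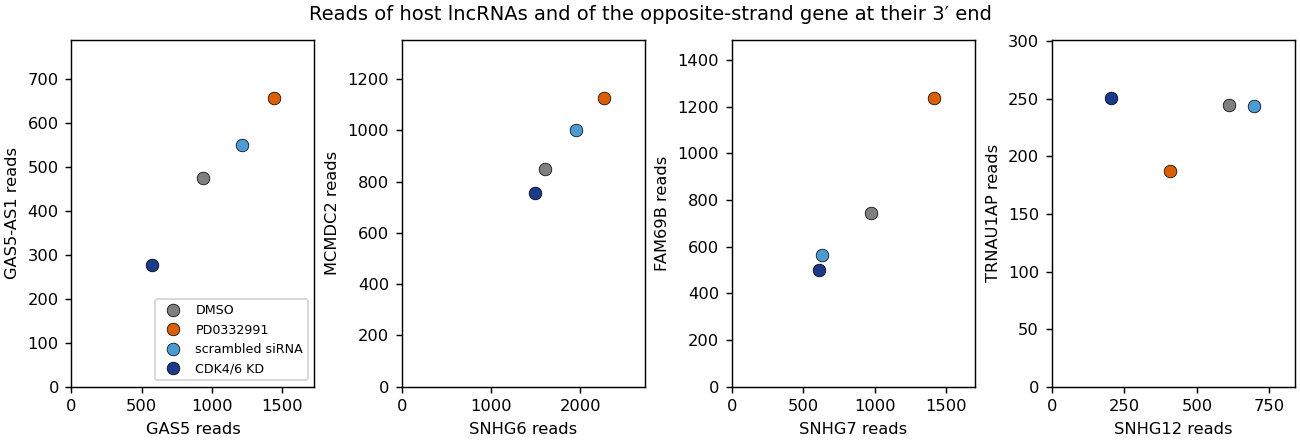
Reads of 4 host genes (horizontal axis) and of the gene on the other strand at their 3′ end (vertical axis) in the 4 libraries, 1 point per library. The points of GAS5 with GAS5-AS1, SNHG6 with MCMDC2 and SNHG7 with FAM69B lie close to a line through the origin, and those of SNHG12 with TRNAU1AP do not.

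Other noncoding snoRNA hosts were represented by 16 listed genes, and 11 had enough reads to compare. In CDK4/6 KD, 7 of these were lower and 1 higher, with a median log2 fold change of -0.42. Beside this list and those below, 31.9% of all genes tested were lower and 30.1% higher in CDK4/6 KD. After PD0332991, 29.2% were higher and 27.7% lower. Of genes averaging 200 reads or more, 41.9% were lower and 32.2% higher in CDK4/6 KD, and 33% higher and 36% lower after PD0332991. SNHG16 had 413 CPM in DMSO, 492 in PD0332991, 428 in scrambled siRNA and 161 in CDK4/6 KD. Its fold change was 0.376 (95% interval 0.356 to 0.397) in CDK4/6 KD and 1.19 (1.14 to 1.24) after PD0332991. SNHG17 was also lower in CDK4/6 KD (0.571, 0.511 to 0.636), as was SNHG4 on 21 and 4 reads (0.199, 0.045 to 0.534), though its interval included 1 against DMSO (0.074 to 1.12). DANCR, the one called higher (1.13, 1.01 to 1.27), was lower against DMSO (0.799, 0.718 to 0.889). After PD0332991, 4 of the 11 were higher and 2 lower, with a median of -0.13. The share called higher was near that of all genes, and the median lay below the 0.56 of the 9 hosts. SNHG4, SNHG9, SNHG10 and SNHG21 had at most 109 reads in DMSO or PD0332991. LRRC75A-AS1, now called SNHG29, had 638 CPM in DMSO, 989 in PD0332991, 720 in scrambled siRNA and 562 in CDK4/6 KD, the same order of libraries as GAS5 and SNHG8. SNHG11 was higher as well (1.5, 1.28 to 1.78), while SNHG10 (0.338, 0.223 to 0.492) and DANCR (0.691, 0.613 to 0.778) were lower after PD0332991. Against scrambled siRNA the intervals of SNHG11 (0.978 to 1.31) and DANCR (0.865 to 1.11) included 1.

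The genes of proteins that bind the snoRNAs were mostly lower in both comparisons. Of 16 genes of box C/D and H/ACA particles and their assembly, 13 were lower in CDK4/6 KD and 10 after PD0332991, and none was higher in either. Their median log2 fold changes were -0.48 and -0.43, and 0.05 between the controls. In that control comparison 6 were higher and 5 lower, against 28.3% and 27.9% of all genes. With the controls exchanged, NOP10 was higher in CDK4/6 KD (1.14, 1.05 to 1.23) and RUVBL2 after PD0332991 (1.35, 1.13 to 1.61). DKC1, the pseudouridine synthase of H/ACA particles, had 299 CPM in DMSO, 195 in PD0332991, 344 in scrambled siRNA and 155 in CDK4/6 KD. NOP56, a core protein of box C/D particles and itself a snoRNA host (as is DKC1), had 626, 328, 575 and 337 CPM. Its fold changes were 0.587 (95% interval 0.564 to 0.611) in CDK4/6 KD and 0.523 (0.5 to 0.547) after PD0332991. NOLC1, which shuttles with these particles to the nucleolus, was lower in CDK4/6 KD (0.485, 0.449 to 0.523), and against DMSO its fold change was 0.581 (0.536 to 0.631). NOP58 and GAR1 were lower after PD0332991 (0.545, 0.517 to 0.575, and 0.521, 0.449 to 0.603).

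Protein-coding snoRNA hosts differed less. Of 38 that passed the filter, most of them ribosomal protein and translation genes, 24 were lower and 7 higher in CDK4/6 KD, and 19 were higher and 13 lower after PD0332991, with medians of -0.10 and 0.09. DKC1, NCL (nucleolin, 0.573, 95% interval 0.562 to 0.584) and NOP56 had the intervals farthest below 1 in CDK4/6 KD, and RPL23A (1.28, 1.23 to 1.34), RPL30 (1.12 to 1.18) and SLC25A3 (1.1 to 1.2) the intervals farthest above 1. For RPL23A and RPL30 the direction turned with the other control, since CDK4/6 KD lay below DMSO (0.81, 0.779 to 0.842, and 0.855, 0.834 to 0.877). After PD0332991, EEF2, the elongation factor that moves the ribosome (1.56, 1.53 to 1.59), TPT1 (1.45, 1.43 to 1.48) and RPL12 (1.44, 1.37 to 1.52) were higher, and NOP56, RABGGTB (0.493, 0.398 to 0.606) and NCL (0.661, 0.648 to 0.675) lower. For RABGGTB the interval against scrambled siRNA included 1 (1.23, 0.961 to 1.58).

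The translation genes with a 5′ TOP tract, a list that shares EEF2, TPT1 and EEF1B2 with the one before, had 11 of 15 higher and 3 lower after PD0332991 and 6 higher and 6 lower in CDK4/6 KD. Their medians were 0.12 and 0.03. EEF1G (1.44, 95% interval 1.38 to 1.49) was among those higher after PD0332991, and EIF3F (1.32, 1.22 to 1.43) and EIF4B (1.26, 1.18 to 1.35) among those higher in CDK4/6 KD, but against DMSO EIF4B was lower (0.935, 0.875 to 0.999). NPM1, a nucleolar chaperone, was lower in CDK4/6 KD (0.568, 0.555 to 0.581), and against DMSO its fold change was 0.712 (0.695 to 0.73). LARP1, which binds 5′ TOP tracts, had fold changes of 1.11 (1.06 to 1.16) in CDK4/6 KD and 0.893 (0.856 to 0.931) after PD0332991. Both directions turned with the other control (0.862, 0.828 to 0.897, and an interval of 1.1 to 1.2).

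**Figure D5:**
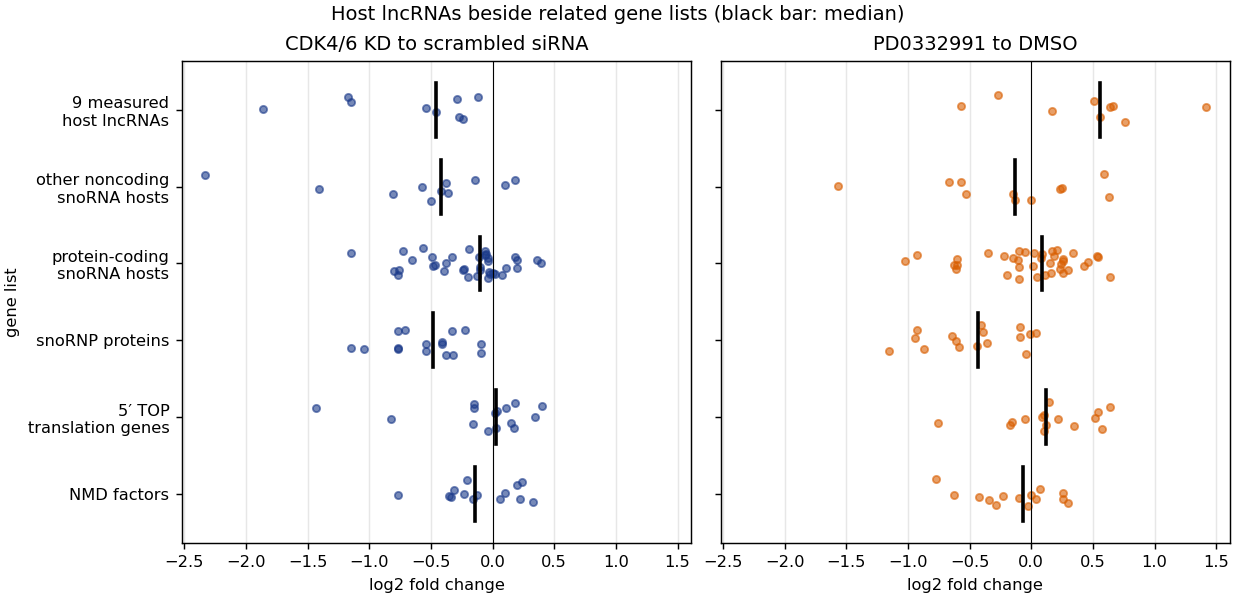
Log2 fold changes of single genes (points, with vertical jitter) in 6 gene lists for CDK4/6 KD to scrambled siRNA (left) and PD0332991 to DMSO (right), with a black bar at each list's median. The bar of the 9 measured hosts (top row) is at -0.46 on the left and 0.56 on the right, and that of the snoRNP proteins at -0.48 and -0.43.

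Of 14 factors of nonsense-mediated decay, 6 were lower and 3 higher in CDK4/6 KD, and 6 were lower and 1 higher after PD0332991, with medians of -0.14 and -0.07. Among the well counted genes, 41.9% were lower in CDK4/6 KD and 36% after PD0332991. Between the controls 5 were lower and 1 higher, with a median of -0.13, close to the median in CDK4/6 KD. The helicase UPF1, central to this pathway, had 104 CPM in DMSO, 102 in PD0332991, 96.9 in scrambled siRNA and 84 in CDK4/6 KD. RBM8A, a protein of the exon junction complex, was lower in CDK4/6 KD (0.588, 95% interval 0.554 to 0.625), though scrambled siRNA itself was 1.49-fold above DMSO for this gene (1.4 to 1.59). EIF4A3, of the same complex, was lower after PD0332991 (0.587, 0.539 to 0.639) and slightly higher in CDK4/6 KD (1.18, 1.09 to 1.28). With the controls exchanged it was lower in CDK4/6 KD (0.754, 0.7 to 0.812) and 0.917 after PD0332991, with an interval reaching 1 (0.838 to 1).

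Among protein-coding genes named for growth arrest, 6 of 9 had enough reads in CDK4/6 KD and 7 after PD0332991. GAS2L1, which links actin and microtubules, was higher in both (2.15, 95% interval 1.81 to 2.56, in CDK4/6 KD and 1.39, 1.14 to 1.7, after PD0332991). GAS7 was higher in CDK4/6 KD (2.42, 1.61 to 3.76), but the scrambled siRNA library was itself low for this gene against DMSO (0.419, 0.265 to 0.637). GADD45A, a stress and DNA damage gene, was lower in CDK4/6 KD (0.706, 0.653 to 0.762), and GAS2L3, a cytokinesis gene, was lower after PD0332991 (0.338, 0.253 to 0.442). Among them, CDK4/6 KD had 2 higher and 1 lower and PD0332991 had 1 of each, with medians of -0.05 and -0.29.

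Long noncoding RNAs that host no snoRNA were examined with 20 listed genes, and 11 could be compared in CDK4/6 KD and 14 after PD0332991. After PD0332991, 8 were higher and 2 lower, and in CDK4/6 KD 3 were higher and 4 lower, with medians of 0.34 and -0.07. NEAT1, the scaffold of paraspeckles, had 315 CPM in DMSO, 766 in PD0332991, 203 in scrambled siRNA and 156 in CDK4/6 KD, so that the PD0332991 library was the highest and CDK4/6 KD the lowest, as for 7 of the 9 hosts. LINC-PINT was also higher after PD0332991 (2.13, 95% interval 1.54 to 3) and lower in CDK4/6 KD (0.554, 0.398 to 0.76), but scrambled siRNA was itself above DMSO (1.67, 1.2 to 2.37). With the controls exchanged both of its intervals included 1 (0.926, 0.634 to 1.35, in CDK4/6 KD and 1.27, 0.972 to 1.67, after PD0332991). LINC00657, now called NORAD, had 343, 378, 148 and 365 CPM, with scrambled siRNA as the low library. HULC, a liver cancer RNA, had 50, 43, 2 and 51 reads, and here too the low library was scrambled siRNA.

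The genes whose levels over the 4 libraries were most like the mean of the 9 hosts were HPS3, ACVR2B, FOXO1, RALGAPA2 and ATG2B. Likeness was the root mean square distance of log2 CPM, centred over the 4 libraries, and it ran from 0.016 to 0.079 for these 5 genes. The host mean was 0.10 in DMSO, 0.54 in PD0332991, 0.02 in scrambled siRNA and -0.66 in CDK4/6 KD on the centred log2 scale. FOXO1, a transcription factor held in check by insulin and AKT signalling, had 0.19, 0.48, -0.02 and -0.65. The likeness rests on 4 libraries only, and 9220 genes were compared.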

How the data were processed

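HepG2 RNA was measured in 4 QuantSeq 3′ mRNA libraries, 1 per condition. The tables the authors deposited hold whole-number counts of reads by gene symbol, neither normalized nor pooled. The submitters' processing notes name Bowtie2, edgeR and hg19, and the counter, annotation and strand setting are not given in the sources used here. Each table lists 25737 entries, and 286 repeated symbols were summed. Library sizes were corrected with TMM factors (edgeR 4.0.16, R 4.3.3). Fold changes used a pseudocount of 0.5 reads and a minimum of 10 reads in one of the compared libraries. The intervals (95%, Clopper-Pearson, scipy 1.17.1) cover counting error only. PCR copies are not accounted for. No p-value was computed, since edgeR's quasi-likelihood test needs replicates. The ratio of fold changes used a normal approximation on the 4 counts. The code for folds and intervals was checked on simulated counts that vary by counting error only. They hold no spread between cultures and no PCR copies, so they do not test the calls made on these libraries.

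The genes and the gene lists were chosen with earlier results of these data known. The text names all 10 hosts, and from each other list up to 3 genes each way ranked by the interval end nearest to 1. Genes that overlap a host on the other strand were named too. UPF1 and SNORD50A were named outside that rule, after their values were seen. The 5 most alike genes were taken from those averaging 100 reads or more, against the mean of 9 hosts, SNHG15 being at or near 0. Gene spans are from GENCODE 29, and snoRNAs and start sequences from RefSeq, all on GRCh38, while the counts were placed by symbol only. Alternatives were DESeq2 1.42.0 size factors, total counts, quantile normalization (limma 3.58.1), a pseudocount of 5, no filter or 50 reads, keeping the entry with most reads of each repeated symbol, calls at 1.5-fold and 2-fold, and the other arm's control.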

Additional observations from a re-analysis of the deposited data

Results flagged for a closer look

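For 6 hosts the interval lay below 1 in CDK4/6 KD and above 1 after PD0332991. The same held for 6.76% of the 13099 genes in both comparisons and for 9.94% of those averaging 200 reads or more. For EPB41L4A-AS1 the CDK4/6 KD interval included 1 against DMSO (0.785 to 1.03). The difference between the conditions was not tested, since each had 1 library. The log2 fold change in CDK4/6 KD minus that after PD0332991 was -1.81 for GAS5, -1.69 for EPB41L4A-AS1, -1.20 for SNHG8, -1.06 for ZFAS1, -0.98 for SNHG6 and -0.41 for SNHG5. No library is shared between these comparisons. For the summed host reads the ratio of the fold changes was 0.493 (95% interval of counting error 0.476 to 0.511).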

How the results depend on the processing

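No host with an interval off 1 changed direction under DESeq2's size factors, total counts, quantile normalization, a pseudocount of 5 reads, no filter, a filter of 50 reads, keeping only the entry with most reads of each repeated symbol or the other arm's control. Of 207 fold changes of single hosts under these alternatives, 191 stayed within the reported interval and 16 moved outside it, all of them with the other arm's control or with total counts alone. With total counts alone the median log2 fold change in CDK4/6 KD was -0.36 and the summed fold change 0.715, with 7 hosts lower. Between the controls the summed fold change was then 0.908 with 1 host higher. Against the other arm's control the summed fold change was 0.633 in CDK4/6 KD and 1.42 after PD0332991. A call at 1.5-fold left 3 hosts lower in CDK4/6 KD, 4 higher and 0 lower after PD0332991, and 0 higher and 1 lower between the controls. At 2-fold these were 3, 1 and 0, and 0 and 0. Without the hosts that end inside a counted gene of the other strand, an alternative chosen after seeing the data, the summed fold change was 0.689 and 4 hosts were lower in CDK4/6 KD. After PD0332991 the median was then 0.42 and the summed fold change 1.27, with 3 higher and 1 lower. Between the controls 1 was then higher and 3 lower, with a median of -0.14. No paired analysis was possible because each condition had 1 library. Counting error was small for these hosts, which had at least 203 reads in each library apart from SNHG15, and the spread between cultures is unknown.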
